A study of Mus musculus with 2 samples.

Results

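The SoxF transcription factors are the 3 genes Sox7, Sox17 and Sox18. They were taken by their symbols from the gene list of the deposited tables, in which each symbol matched 1 of 31053 genes. Their transcripts were followed in 2 single-cell RNA-seq libraries of C57BL/6 mouse embryos, 1 from E11.5 and 1 from E10.5. Each library pooled the dorsal aorta, the tissue around it and the fetal liver. The labels name no mutant allele, transgene or treatment at either stage, and they do not give the number of embryos pooled. With 1 library per stage there is no replicate. No difference between stages, classes or subclusters was tested, and stage and library cannot be told apart. Ranges in brackets are 95% intervals of the counts and cover counting error alone.

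SoxF proteins bind DNA through a high-mobility-group domain and activate transcription through a region that can also bind beta-catenin. In mouse embryos they act in overlapping ways in the growth of blood vessels, in the choice of arterial identity and in the start of lymphatic vessels. Haematopoietic stem cell precursors arise from the endothelium of the dorsal aorta, where Sox17 is needed for haemogenic endothelium. Sox17 is also a regulator of definitive endoderm. Sox18 switches on Prox1 in the veins from which lymphatic vessels start, and mutations of Sox18 cause the ragged phenotype in mice. Sox7 acts in the earliest haemogenic progenitors and in vessel patterning.

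In GRCm38 coordinates, Sox7 (ENSMUSG00000063060) spans chromosome 14 from 63943673 to 63950732 on the plus strand. Sox17 (ENSMUSG00000025902) spans chromosome 1 from 4490931 to 4497354 on the minus strand, where an annotated gene on the other strand, Gm37587, overlaps it. Gm37587 is not in the gene list of the tables. Sox18 (ENSMUSG00000046470) spans chromosome 2 from 181669836 to 181671640 on the minus strand. The annotation gives 8 transcripts for Sox17 and 1 each for Sox7 and Sox18. A 3' assay does not tell the Sox17 transcripts apart.

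After filters on depth, gene number, mitochondrial share and doublets, 8976 cells remained at E11.5 and 8009 at E10.5, with medians of 13120.5 and 15467 UMIs per cell. The libraries shared 37 barcode sequences. Endothelial-like cells, named by marker genes, numbered 229 at E11.5 and 385 at E10.5, which was 2.55% and 4.81% of cells. All 12 endothelial markers were detected in them at both stages, with a median level of 543 CPM (UMIs per 1000000) at E11.5 and 479 CPM at E10.5. The arterial endothelial-like class held 58 cells at E11.5 and 147 at E10.5. Its arterial markers summed to 4321 CPM at E11.5 and 4709 CPM at E10.5, against 278 and 236 CPM in the other endothelial-like cells. The 3 SoxF genes were kept out of the clustering, so their levels did not place any cell.

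SoxF transcripts were rare in the tissue as a whole and concentrated in endothelium. Among barcodes that passed the depth and mitochondrial filters, a UMI of at least 1 member was found in 4.98% at E11.5 and 7.86% at E10.5. UMIs of all 3 members were found together in 1.31% of barcodes at E11.5 and 2.19% at E10.5. Of all Sox7 UMIs, 93.1% lay in endothelial-like cells at E11.5 and 92.6% at E10.5. For Sox17 these shares were 93.7% and 91.9%, and for Sox18 they were 91.1% and 89.3%. Cells outside the vascular clusters held each member at no more than 1.43 CPM at E11.5 and 1.59 CPM at E10.5.

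The level in cells that should lack SoxF transcripts is a guide to the background of the assay, which differed between classes. At E11.5, the shares of neural crest or glia-like cells with a UMI were 0.403% for Sox7, 0.806% for Sox17 and 1.21% for Sox18, in 248 cells of median depth 21837 UMIs. In 304 such cells at E10.5, of median depth 20376 UMIs, the shares were 0% for Sox7, 0.658% for Sox17 and 0.329% for Sox18. A count of 0 in 304 cells allows a share of up to 0.987%. With each cell thinned to 5000 UMIs, 2 of 219 of these cells at E11.5 held a Sox18 UMI and none held Sox7 or Sox17, and at E10.5 none of 287 cells held any member. In 982 erythroid-like cells at E11.5, of median depth 25173 UMIs, 0 held Sox7, 0.509% held Sox17 and 0.713% held Sox18. In the 187 erythroid-like cells at E10.5, of median depth 31270 UMIs, the Sox17 share was 0.535% and no cell held Sox7 or Sox18. Unnamed cluster 0 was shallow, with a median of 1659 UMIs in 913 cells at E10.5. There Sox7, Sox17 and Sox18 stood at 4.49%, 5.14% and 3.43% of their endothelial-like levels, and the 12 endothelial markers at a median of 2.51%. At E11.5 its members stood at 2.72%, 0.992% and 1.36%, and the markers at 1.82%.

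**Figure D1:**
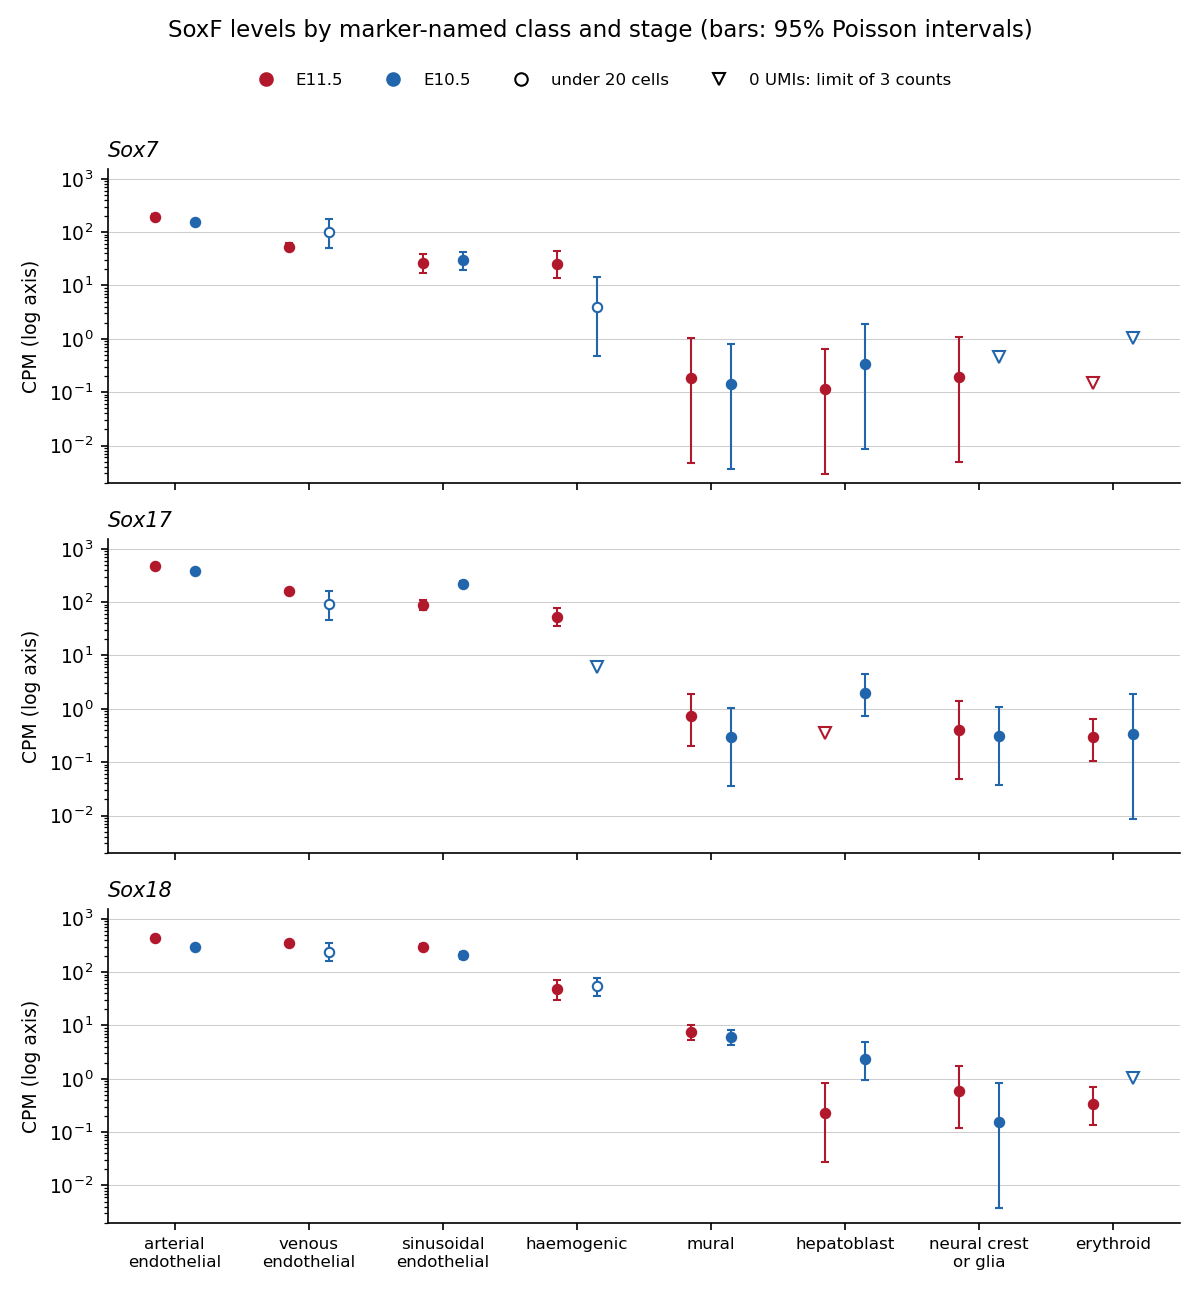
Level of Sox7, Sox17 and Sox18 (CPM on a log axis) in 8 cell classes at E11.5 and E10.5, with 95% counting intervals; open circles mark classes under 20 cells and triangles mark counts of 0, drawn at the limit of 3 counts. Arterial endothelial-like cells sit highest for Sox7 and Sox17, while neural crest or glia-like cells stay at 0.589 CPM or below for every member.

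Over all endothelial-like cells, Sox7 and Sox17 stood at nearly equal levels in both libraries, and Sox18 was higher at E11.5. Sox7 was at 79.4 CPM (72.1 to 87.2) at E11.5 and 76.9 CPM (70.8 to 83.3) at E10.5. Sox17 was at 217 CPM (205 to 230.1) at E11.5 and 226 CPM (216 to 237) at E10.5. Both intervals of the stage ratio included 0, with log2 ratios of 0.05 (-0.14 to 0.23) for Sox7 and -0.06 (-0.16 to 0.05) for Sox17. Sox18 was at 369 CPM (353 to 385) at E11.5 and 251 CPM (240.0 to 263) at E10.5, a log2 ratio of 0.56 (0.46 to 0.65) or 1.47-fold. None of the 3 members passed a 2-fold difference between the stages. Of all genes compared in endothelial-like cells, 3.81% were at least 2-fold higher at E11.5 and 2.22% at least 2-fold lower, and the median log2 ratio was 0.04. The Sox18 ratio lay between 0.28 and 0.67 under every alternative run. The Sox7 and Sox17 stage ratios changed sign under some of them, from -0.62 to 0.45 for Sox7 and from -0.58 to 0.06 for Sox17.

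The share of endothelial-like cells with a UMI followed the levels, but depth differed between the libraries, with medians of 18735 UMIs in endothelial-like cells at E11.5 and 11992 at E10.5. At their own depth, 57.2% of cells at E11.5 and 53.8% at E10.5 held Sox7, 75.1% and 74.0% held Sox17, and 90.4% and 72.7% held Sox18. Thinning to 5000 UMIs left 181 cells at E11.5 and 263 at E10.5, with 48 and 122 shallower cells left out. The Sox18 share was then 77.3% (70.6 to 83.2) at E11.5 and 63.5% (57.4 to 69.3) at E10.5, and these intervals did not overlap. The Sox17 share was 59.7% (52.1 to 66.9) at E11.5 and 63.1% (57.0 to 69.0) at E10.5. For Sox7 it was 27.1% (20.7 to 34.2) at E11.5 and 31.2% (25.6 to 37.2) at E10.5. The intervals of both Sox17 and Sox7 overlapped between the stages. All of these shares lay far above the thinned background of neural crest or glia-like cells.

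Single cells varied widely around these levels. The median cell of the endothelial-like class held 337 CPM of Sox18 at E11.5 and 173 CPM at E10.5, and the highest held 1864 and 1607 CPM. For Sox17 the median cell was at 127 CPM at E11.5 and 196 CPM at E10.5, with highest cells of 2295 and 3515 CPM. The highest Sox17 and Sox18 cells of both libraries belonged to a shallow vascular subcluster, subcluster 0, in which a few UMIs give such values. The Sox17 median was higher at E10.5, while the summed level was nearly equal. For Sox7 the median cell was at 33.5 CPM at E11.5 and 25.7 CPM at E10.5. Cells without any SoxF UMI numbered 14 of 229 at E11.5 and 37 of 385 at E10.5. These cells were shallow, with medians of 1421 UMIs at E11.5 and 1658 UMIs at E10.5.

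Arterial endothelial-like cells held more Sox7 and Sox17 than the other endothelial-like cells in both libraries, and Sox18 differed less. Sox7 was at 196 CPM (172 to 222) in arterial cells against 46.1 CPM (39.8 to 53.0) in the others at E11.5, and at 156 CPM (140.4 to 172) against 40.4 CPM (35.1 to 46.2) at E10.5. The arterial over other ratio of Sox7 was 4.25-fold at E11.5 (log2 2.09, 1.81 to 2.37) and 3.86-fold at E10.5 (log2 1.95, 1.70 to 2.20). A single arterial cell at E11.5 carried 45 of the 237 Sox7 UMIs, and without it the arterial level was 171 CPM. Sox17 was at 474 CPM (436 to 515) in arterial cells against 144 CPM (133 to 156) in the others at E11.5, and at 387 CPM (363 to 413) against 152 CPM (141 to 163) at E10.5. Its ratio was 3.29-fold at E11.5 (log2 1.72, 1.55 to 1.89) and 2.55-fold at E10.5 (log2 1.35, 1.22 to 1.49). Sox18 was at 442 CPM (405 to 481) in arterial cells against 348 CPM (331 to 366) in the others at E11.5, and at 298 CPM (277 to 321) against 229 CPM (216 to 243) at E10.5. The Sox18 ratio was 1.27-fold at E11.5 (log2 0.34, 0.20 to 0.49) and 1.30-fold at E10.5 (log2 0.38, 0.25 to 0.51). In the same comparison, 12.8% of all genes at E11.5 and 18.1% at E10.5 were at least 2-fold higher in arterial cells, and 8.7% and 5.87% at least 2-fold lower. Of the SoxF members, 2 of 3, Sox7 and Sox17, were among the higher genes at each stage.

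How cells were classed and summed moved some of these ratios. At E10.5, the Sox17 arterial over other log2 ratio was 0.45 with each library clustered alone and 0.59 when cells were averaged with equal weight, and the Sox7 ratio was 0.51 in the equal-weight mean. At E11.5, the Sox7 ratio was 1.08 with mitochondrial UMIs held to 5%, and the Sox18 ratio was 1.29 when cells were gated on single markers. With the same gate, arterial levels were 90.7 CPM at E11.5 and 83.5 CPM at E10.5 for Sox7, and 252 and 236 CPM for Sox17. All arterial over other ratios of the 3 members stayed above 0 in every alternative run.

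**Figure D2:**
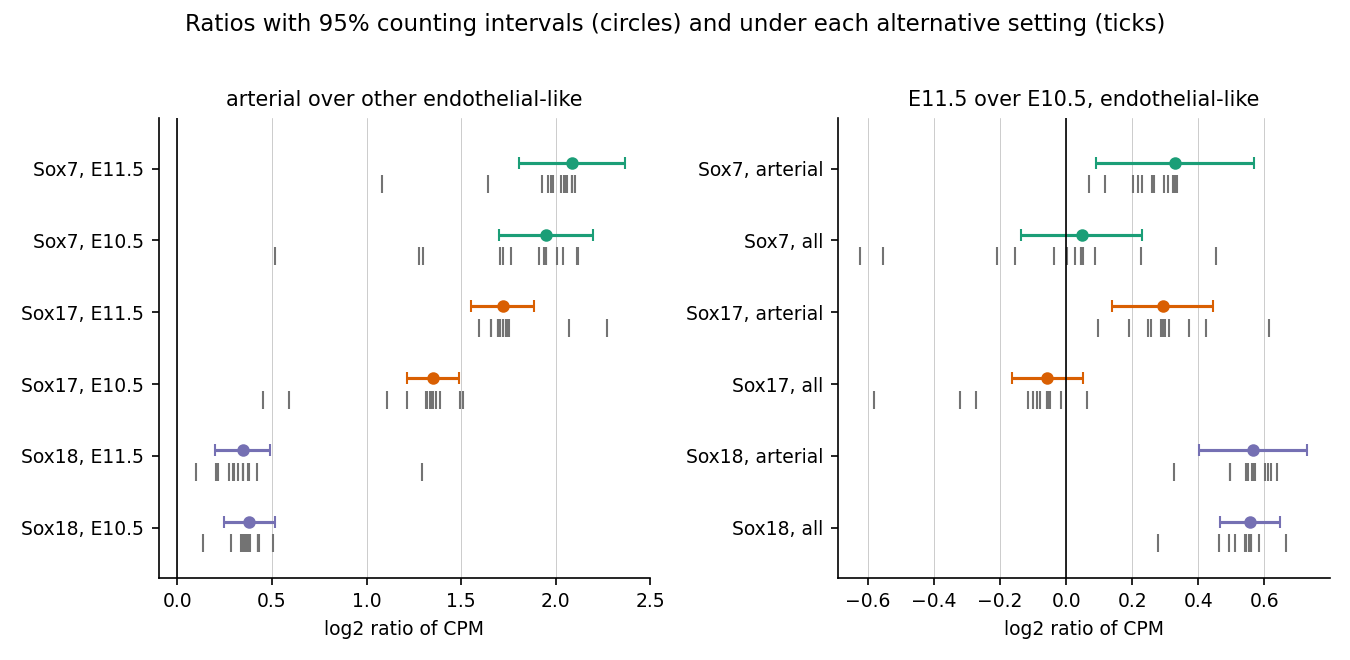
Log2 ratios of each SoxF member, arterial over other endothelial-like cells on the left and E11.5 over E10.5 on the right; circles are the values as reported with 95% counting intervals and ticks are the values under the processing alternatives. Sox7 and Sox17 ratios of arterial over other cells lie between 1.35 and 2.09 as reported, and Sox18 ratios at 0.34 and 0.38.

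Arterial cells also held Sox7 and Sox17 more often at matched depth, and the Sox18 shares differed less. Of arterial cells thinned to 5000 UMIs (56 at E11.5 and 139 at E10.5, with 2 and 8 left out), 85.7% (73.8 to 93.6) held Sox17 at E11.5 and 79.9% (72.2 to 86.2) at E10.5. In the other endothelial-like cells (125 at E11.5 and 124 at E10.5, with 46 and 114 left out), the Sox17 shares were 48.0% and 44.4%. Sox7 was found in 44.6% of thinned arterial cells at E11.5 and 40.3% at E10.5, against 19.2% and 21% of the others. For Sox18 the shares were 83.9% in arterial against 74.4% in other cells at E11.5, and 66.9% against 59.7% at E10.5. At their own depth, 98.3% of arterial cells at E11.5 and 89.8% at E10.5 held Sox17, against 67.3% and 64.3% of the others. The other endothelial-like cells were shallower than arterial cells at E10.5 (median 5876 against 13375 UMIs) and deeper at E11.5 (19638 against 15872.5 UMIs).

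Between the stages, all 3 members were higher in arterial cells at E11.5 than at E10.5, by less than 2-fold. The log2 ratios were 0.33 (0.09 to 0.57) for Sox7, 0.29 (0.14 to 0.44) for Sox17 and 0.57 (0.40 to 0.73) for Sox18. Under the alternatives they ran from 0.07 to 0.34 for Sox7, 0.10 to 0.61 for Sox17 and 0.33 to 0.64 for Sox18. Without the top cell of each stage, arterial Sox7 was at 171 CPM (148 to 197) at E11.5 and 149 CPM (133 to 165) at E10.5. These Sox7 intervals overlapped. Of all genes in arterial cells, 3.25% were at least 2-fold higher and 3.9% at least 2-fold lower at E11.5, with a median log2 ratio of 0.00. In the other endothelial-like cells, the log2 ratios were 0.19 (-0.10 to 0.48) for Sox7, -0.08 (-0.23 to 0.08) for Sox17 and 0.60 (0.49 to 0.71) for Sox18. Different subclusters made up this class too, with 93 of 171 cells from subcluster 2 at E11.5, and 116 and 92 of 238 from subclusters 0 and 3 at E10.5. There the intervals of Sox7 and Sox17 included 0, and that of Sox18 did not. Of all genes in these other cells, 7.06% were at least 2-fold higher and 1.89% at least 2-fold lower at E11.5.

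Different subclusters made up the arterial class at the 2 stages. At E11.5 it held 39 cells of subcluster 5, led by the elastic matrix genes Fbln5, Mgp and Eln, with 12 cells of subcluster 6 and 7 of subcluster 1. At E10.5 it held 122 cells of subcluster 1, led by the gap junction gene Gja5 and the endothelin gene Edn1, and 25 cells of subcluster 6. Subcluster 5 held no E10.5 cell, and a cluster mostly of 1 library may be that library and not a cell type. Set side by side, subcluster 5 at E11.5 had 129 CPM of Sox7, 490.0 CPM of Sox17 and 419 CPM of Sox18. Subcluster 1 at E10.5 had 102 CPM of Sox7, 369.9 CPM of Sox17 and 261 CPM of Sox18. The log2 ratios between them were 0.34 (-0.05 to 0.72) for Sox7, 0.41 (0.21 to 0.60) for Sox17 and 0.69 (0.46 to 0.90) for Sox18. No member passed 2-fold, where 4.93% of all genes were at least 2-fold higher and 5.71% at least 2-fold lower.

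Sox7 was highest in subcluster 6, an arterial subcluster led by the glucose transporter gene Slc2a1, Igfbp3 and the netrin receptor gene Unc5b, with Sox7 itself among its 10 leading genes. Its level of Sox7 was 327 CPM (276 to 384) in 12 cells at E11.5 and 289.6 CPM (251 to 333) in 25 cells at E10.5. The E11.5 arterial cell with 45 Sox7 UMIs, in a total of 90429 UMIs, was among those 12 cells. The level of subcluster 6 without that cell was not computed. Sox17 in subcluster 6 was at 453 CPM at E11.5 and 431 CPM at E10.5, and Sox18 at 444 and 392 CPM. At E10.5, the log2 ratio of subcluster 6 over subcluster 1 was 1.5 (1.20 to 1.80) for Sox7, 0.22 (0.02 to 0.42) for Sox17 and 0.59 (0.36 to 0.81) for Sox18. Sox7 was the 1 member past 2-fold, where 4.67% of all genes were at least 2-fold higher and 9.72% at least 2-fold lower. At 5000 UMIs per cell, 83.3% of subcluster 6 cells at E10.5 held a Sox7 UMI, against 31.3% of subcluster 1 cells. The 3 members thus differed within the arterial class, with Sox7 showing the widest gap.

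In venous cells, Sox18 stood above Sox17. Venous endothelial-like cells at E11.5 (93 cells, subcluster 2) held Sox7 at 53.6 CPM (45.7 to 62.4), Sox17 at 159 CPM (145 to 174) and Sox18 at 356 CPM (336 to 378). Only 6 venous cells were found at E10.5, with 99.4 CPM of Sox7, 91.1 CPM of Sox17 and 240.3 CPM of Sox18, values that rest on 12, 11 and 29 UMIs. Against subcluster 5 at E11.5, the venous log2 ratios were -1.27 for Sox7, -1.62 for Sox17 and -0.23 for Sox18. Sox7 and Sox17 were thus at least 2-fold lower, as were 13.7% of all genes, while 9.87% were at least 2-fold higher. Subcluster 3, which held 92 cells at E10.5 and had the venous genes Aplnr and Nrp2 among its leading genes, was not named by the marker rule. It held 35.3 CPM of Sox7, 119.9 CPM of Sox17 and 237 CPM of Sox18 at E10.5. Against arterial subcluster 1 of the same library, its log2 ratios were -1.53 for Sox7, -1.63 for Sox17 and -0.14 for Sox18, while 18.6% of all genes were at least 2-fold lower there and 6.76% at least 2-fold higher.

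Sinusoidal endothelial-like cells, which line the liver sinusoids, held the lowest Sox7 among the named endothelial classes. Sox7 was at 26.8 CPM (17.3 to 39.6) in 32 cells at E11.5 and 29.9 CPM (19.9 to 43.3) in 24 cells at E10.5. Sox17 was at 89.0 CPM (70.8 to 110.3) at E11.5 and 218 CPM (189 to 250.2) at E10.5, and these intervals did not overlap. A single cell held 37 of the 204 Sox17 UMIs at E10.5, and without it the level was 192 CPM. Sox18 was at 298 CPM (264 to 335) at E11.5 and 207 CPM (179 to 239) at E10.5, and every sinusoidal cell at both stages held a Sox18 UMI. Over arterial cells, the sinusoidal log2 ratios at E11.5 were -2.87 for Sox7, -2.41 for Sox17 and -0.57 for Sox18, and at E10.5 they were -2.38 for Sox7, -0.83 for Sox17 and -0.52 for Sox18. Sox7 was at least 2-fold lower at both stages and Sox17 at E11.5, and no member was at least 2-fold higher. Of all genes, 20.7% at E11.5 and 24.7% at E10.5 were at least 2-fold lower, and 9.36% and 5.69% at least 2-fold higher. Between the stages, the sinusoidal Sox17 log2 ratio was -1.29 (-1.68 to -0.92), which was past 2-fold lower, as were 2.8% of all genes, while 8.16% were at least 2-fold higher. These classes are under 50 cells each.

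Subcluster 0 stood apart from the rest of the endothelium. It had 39 cells at E11.5 and 116 at E10.5, with medians of 1763 and 1913.5 UMIs per cell and of 0.235% and 0.410% mitochondrial UMIs. Hey1, Tagln, Sat1 and Acta2 led it, so it mixed an arterial gene with smooth muscle genes and was not named. At E10.5 it held 120.4 CPM of Sox7, 397 CPM of Sox17 and 191 CPM of Sox18, close to subcluster 1 for Sox17 (log2 ratio 0.10). No member passed 2-fold between these subclusters, where 2.36% of all genes were at least 2-fold higher in subcluster 0 and 27.3% at least 2-fold lower. At E11.5 it held 47.2 CPM of Sox7, 236 CPM of Sox17 and 378 CPM of Sox18, from 4, 20 and 32 UMIs. It was counted among the other endothelial-like cells, and without it the E10.5 Sox17 ratio of arterial over other cells was 1.49 in place of 1.35. Whether these shallow barcodes with few mitochondrial UMIs are intact cells was not tested, and the levels and shares of the other endothelial-like cells include them. Of the endothelial-like cells with no SoxF UMI, 13 of 14 at E11.5 and 35 of 37 at E10.5 belonged to it.

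**Figure D3:**
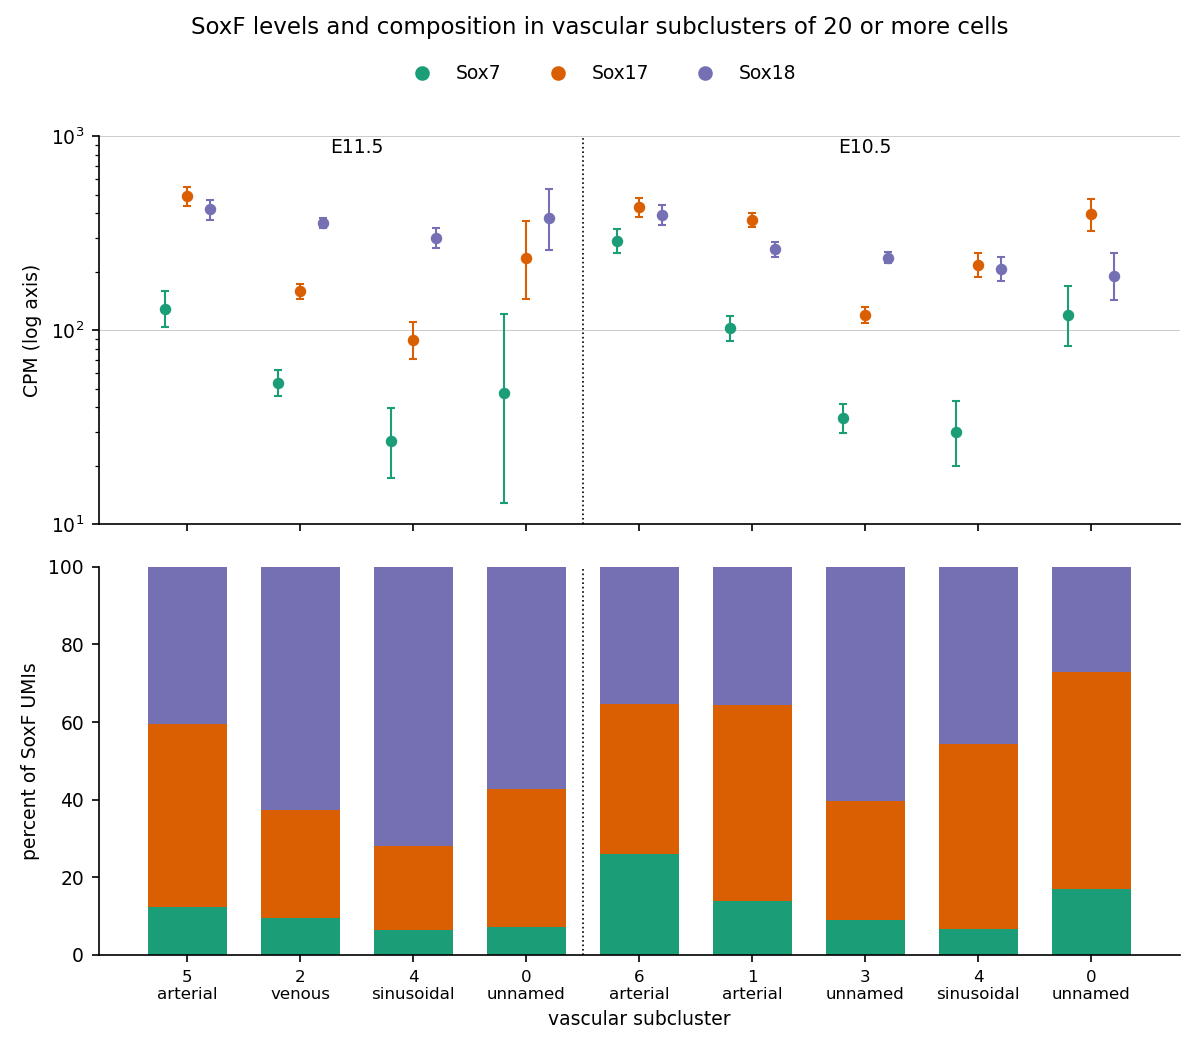
SoxF members in the vascular subclusters of 20 or more cells in each library: the top row gives the level of each member (CPM, log axis) with 95% counting intervals, and the bottom row gives each member's percent of the SoxF UMIs. Sox7 is highest in arterial subcluster 6 at E10.5, at 289.6 CPM, and Sox18 takes 72.0% of the SoxF UMIs in sinusoidal subcluster 4 at E11.5.

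The makeup of the SoxF UMIs gave the same differences within each cell class. A UMI of this assay counts 1 captured transcript end and is not divided by gene length, so these shares describe captured molecules. In arterial cells, Sox17 made up 42.6% of the SoxF UMIs at E11.5 and 46.0% at E10.5, and Sox18 made up 39.7% and 35.5%. In the other endothelial-like cells Sox18 made up the larger part, 64.7% at E11.5 and 54.4% at E10.5, with Sox17 at 26.7% and 36.0%. Sox7 was the smallest part in both, at 17.6% in arterial against 8.56% in other cells at E11.5, and 18.5% against 9.59% at E10.5. In sinusoidal cells the Sox18 part was 72.0% at E11.5 and 45.5% at E10.5, and the Sox17 part 21.5% and 47.9%. Sox18 thus led in sinusoidal cells at E11.5, and Sox17 and Sox18 were nearly equal there at E10.5.

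The members were often found in the same cell. At their own depth, 51.1% of endothelial-like cells (44.4 to 57.7) at E11.5 and 40.3% (35.3 to 45.3) at E10.5 held UMIs of all 3. In arterial cells these shares were 69.0% at E11.5 and 63.3% at E10.5, and in the other endothelial-like cells 45.0% and 26.1%. At 5000 UMIs per cell, all 3 members were found in 35.7% (23.4 to 49.6) of arterial cells at E11.5 and 24.5% (17.6 to 32.5) at E10.5, against 7.20% (3.35 to 13.2) and 8.87% (4.51 to 15.3) of the others. Sox17 with Sox18 but without Sox7 was found in 35.7% of arterial cells at E11.5 and 29.5% at E10.5. Sox18 alone was found in 8.93% and 8.63% of arterial cells, against 28.0% and 24.2% of the others. The shares with all 3 and with Sox18 alone thus ran in opposite directions between arterial and other cells in both libraries.

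**Figure D4:**
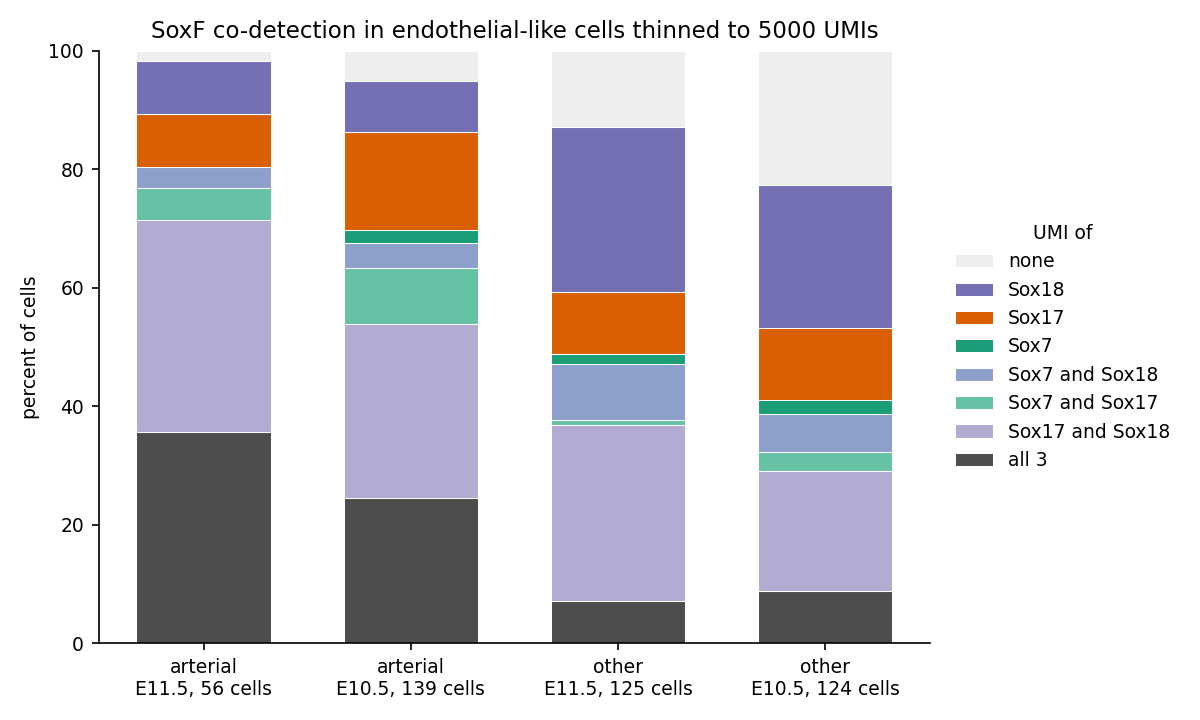
Percent of cells, thinned to 5000 UMIs each, that hold each combination of Sox7, Sox17 and Sox18, in arterial cells (56 at E11.5, 139 at E10.5) and other endothelial-like cells (125 at E11.5, 124 at E10.5). All 3 members are found in 35.7% and 24.5% of arterial cells, against 7.20% and 8.87% of the others.

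Pooled over all thinned endothelial-like cells, the share with one member was higher in cells that held another, with intervals that overlapped except for Sox17 with and without Sox7 at E10.5. At E11.5, 87.8% of cells with a Sox7 UMI also held Sox18, against 73.5% of cells without Sox7, and at E10.5 the shares were 72.0% against 59.7%. Sox17 was found in 67.3% of cells with Sox7 against 56.8% without it at E11.5, and in 75.6% against 57.5% at E10.5. Sox18 was found in 79.6% of cells with Sox17 against 74.0% without it at E11.5, and in 66.9% against 57.7% at E10.5. These shares pool arterial and other cells, which differ in all 3 members, and within a class the direction was not always the same. In the other endothelial-like cells at E11.5, Sox17 was found in 41.7% (22.1 to 63.4) of cells with Sox7 against 49.5% (39.4 to 59.6) without it. In arterial cells at E11.5, Sox18 was found in 83.3% of cells with Sox17 against 87.5% of the 8 cells without it.

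Haemogenic or intra-aortic cluster-like cells held fewer SoxF UMIs than arterial cells. The class is subcluster 3 of cluster 35, a cluster named granulocyte or monocyte progenitor-like as a whole, and was named because it passed both for 6 of 11 haemogenic markers and for 11 of 12 endothelial markers. A marker passed here at 2-fold over the other subclusters of cluster 35, which are blood progenitor-like, and not over endothelium. H19, Ramp2 and Cdh5 were among its leading genes. Its cells numbered 20 at E11.5 and 12 at E10.5, with medians of 23218.5 and 40117.5 UMIs, and all 11 haemogenic markers were detected at both stages. Of the 12 endothelial markers, all were detected at E11.5 and 1 was at 0 at E10.5. Sox17 was at 53.3 CPM (35.1 to 77.5) at E11.5, from 27 UMIs, and at 0 UMIs at E10.5, which allows up to 6.03 CPM. Sox7 was at 25.6 CPM (13.7 to 43.9) at E11.5, from 13 UMIs, and 4.02 CPM (0.487 to 14.5) at E10.5, from 2 UMIs. Sox18 was at 47.3 CPM (30.3 to 70.4) at E11.5 and 54.3 CPM (35.8 to 79.0) at E10.5, and these intervals overlapped. Taken over both stages, the log2 ratios over arterial cells were -3.50 (-4.35 to -2.77) for Sox7, -3.95 (-4.56 to -3.41) for Sox17 and -2.77 (-3.20 to -2.36) for Sox18. These ratios pool stages in unlike proportions, 20 cells at E11.5 and 12 at E10.5 against 58 and 147 arterial cells. All 3 members were at least 2-fold lower there, as were 23.7% of all genes, with a median of -0.18.

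The SoxF signal in haemogenic-like cells rested on few of them. A UMI of any member was found in 7 of 20 cells at E11.5 and 7 of 12 at E10.5. Sox17 was found in 3 of 20 and 0 of 12 cells, Sox7 in 2 of 20 and 2 of 12, and Sox18 in 7 of 20 and 7 of 12. At 5000 UMIs per cell, Sox18 was left in 3 of 20 cells at E11.5 and 3 of 12 at E10.5, and Sox17 in 1 of 20 and 0 of 12. A single E11.5 cell held 18 of the 27 Sox17 UMIs, and without it the level was 19.6 CPM. That cell also held 4 Sox7 and 4 Sox18 UMIs, together with 5 of Runx1, 23 of the endothelial cadherin gene Cdh5, 13 of Gja4 and 7 of Myb, in a total of 51302 UMIs. Another E11.5 cell held 9 of the 13 Sox7 UMIs, and without it the level was 9.18 CPM. At E11.5, endothelial markers in the class stood at a median of 13.6% (6.02 to 51.1 over the markers) of their level in endothelial-like cells. The members stood at 32.3% for Sox7, 24.5% for Sox17 and 12.8% for Sox18 of theirs, within the range of the markers. Cells that held at least 2 UMIs each of Cdh5 and Runx1, 13 at each stage, had 127 CPM of Sox17 at E11.5 and 27.0 CPM at E10.5, and 142 and 58.3 CPM of Sox18.

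Sox18 was also found in mural-like cells, a class named by smooth muscle or mural markers. The class was made of different clusters at the 2 stages. At E11.5, 340 cells came from cluster 19, which passed 7 of 9 markers, with Pdgfrb, Rgs5 and Cspg4 among them. At E10.5 all 420 cells came from cluster 14, which passed only Acta2, Tagln and Cnn1. The Sox18 level in mural-like cells was 7.40 CPM (5.29 to 10.1) from 40 UMIs in 345 cells at E11.5, and 5.95 CPM (4.27 to 8.08) from 41 UMIs in 420 cells at E10.5. Sox17 was at 0.740 CPM at E11.5 and 0.290 CPM at E10.5 in these cells, and Sox7 at 0.185 and 0.145 CPM. A Sox18 UMI was found in 8.12% of mural-like cells at E11.5 and 5.71% at E10.5, and in 13 of 336 and 9 of 405 cells at 5000 UMIs. Sox18 stood at 2.01% of its endothelial level at E11.5 and 2.37% at E10.5. In the shallow, unnamed cluster 0 it stood at 1.36% and 3.43%. The 12 endothelial markers stood at a median of 0.57% of theirs at E11.5 and 0.425% at E10.5. Of them, 3 stood above Sox18 at E11.5 (Esam at 6.83%, Ecscr at 4.97% and Egfl7 at 2.30%) and 9 below it. At E10.5, Ecscr stood above Sox18 at 4.67% and the other 11 below it, with Robo4 at 0 UMIs. Of mural-like cells with Sox18, 78.6% of 28 at E11.5 and 75% of 24 at E10.5 held some endothelial marker UMI. Of those without Sox18, 61.8% and 56.1% did, and the intervals overlapped at both stages. Cells with Sox18 were deeper, with medians of 18099 against 15090 UMIs at E11.5 and 19881.5 against 16008 UMIs at E10.5. Their endothelial markers summed to 214 against 77.1 CPM at E11.5 and 80.7 against 74.3 CPM at E10.5. The part of endothelial RNA in this Sox18 signal was not tested.

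Endoderm cells gave little Sox17. Gut or lung endoderm-like cells numbered 3 at E11.5 and 29 at E10.5, and 1 Sox17 UMI was found in them at E10.5. Hepatoblast-like cells, the liver epithelium, held Sox17 at 0 UMIs at E11.5, which allows up to 0.347 CPM, and at 2.02 CPM from 6 UMIs at E10.5.

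Over all clusters, the genes whose levels ran most like each member were endothelial genes. Likeness was the Pearson r of log2(CPM + 10) over 67 pairs of cluster and library with at least 20 cells, among 8704 genes. The units share libraries and differ mainly in whether they are endothelial, so these values are a description. Sox7 was most like Sox17 (r = 0.976), followed by Ccm2l (0.960), the arterial connexin gene Gja4 (0.959), the caveolin gene Cav2 (0.942) and She (0.932). After Sox7, Sox17 was most like the repressor gene Bcl6b (0.952), Cav2 (0.951), Myzap (0.95) and Ccm2l (0.949). Sox18 was most like She (0.981), Rasip1, which acts in vessel lumen formation (0.977), Klhl4 (0.975), Emcn (0.969) and Myzap (0.969). Neither Sox7 nor Sox17 was among the 5 genes most like Sox18. Over the 10 vascular subcluster units alone, r was 0.845 between Sox7 and Sox17, 0.519 between Sox7 and Sox18 and 0.512 between Sox17 and Sox18. Among 5273 genes there, the most alike were Rgs3 (0.965) for Sox7, Klhl5 (0.960) for Sox17 and Hook3 (0.935) for Sox18. No member was then among the 5 genes most like another.

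Of the 4 other SOX genes highest in endothelial-like cells, Sox4, Sox11 and Sox12 were expressed more broadly, and Sox13 was higher there than outside. The levels in endothelial-like cells were Sox4 (543 CPM at E11.5, 514 CPM at E10.5), Sox11 (184 and 176 CPM), Sox12 (34.4 and 31.3 CPM) and Sox13 (31.6 and 28.7 CPM). Cells outside the vascular classes held Sox4 at 584 CPM at E11.5 and 646 CPM at E10.5 and Sox11 at 330.0 and 617 CPM, so neither was concentrated in endothelium as the SoxF members were. Outside levels were 65.4 and 74.4 CPM for Sox12, and 6.28 and 10.4 CPM for Sox13. Of the other SOX genes with at least 20 UMIs, 4 of 6 at E11.5 and 6 of 8 at E10.5 were at least 2-fold higher in arterial than in other endothelial-like cells, against 12.8% and 18.1% of all genes. At E10.5 these included Sox2 (8.65 against 0.762 CPM), Sox5 (18.5 against 1.33 CPM) and Sox9 (16.1 against 4.76 CPM). Cells outside the vascular classes held Sox2, Sox5 and Sox9 at 28.6, 25.7 and 163 CPM, above the arterial levels. Sox4, Sox6 and Sox13 were higher in arterial cells than outside at E10.5. Sox6, a SoxD gene picked here after its values were seen, was at 60.3 CPM in arterial against 1.18 CPM in other cells at E11.5, and 58.9 against 1.91 CPM at E10.5. Its arterial over other gap was wider than that of any SoxF member in both libraries.

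Genes reported elsewhere as SoxF targets were mostly higher in arterial cells, where Sox7 and Sox17 were high. Of 17 measured targets, 10 were at least 2-fold higher and 1 lower in arterial over other cells at E11.5 (median log2 ratio 1.16, against 0.13 for all genes), and 13 higher and 1 lower at E10.5 (median 1.68, against 0.24). Gja4 was at 1968 CPM in arterial against 49.9 CPM in other cells at E11.5 (log2 ratio 5.30) and 2278 against 69.7 CPM at E10.5 (5.03). The chemokine receptor gene Cxcr4 had log2 ratios of 3.47 at E11.5 and 5.08 at E10.5. The ephrin gene Efnb2 was at 429 against 90.3 CPM at E11.5 and 337 against 42.3 CPM at E10.5, and the Notch ligand gene Dll4 at 142 against 28.1 CPM and 153 against 20.4 CPM. Gja4, Cxcr4, Efnb2 and Dll4 are also arterial markers that named the class, and all of these genes entered the clustering, so the counts describe the class and test nothing.

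The Notch pathway, which acts with SoxF factors in arterial identity, had 7 of 11 genes at least 2-fold higher and none lower in arterial cells at E11.5 (median log2 ratio 1.70), and 8 of 11 at E10.5 (median 1.93). Of all genes, 12.8% at E11.5 and 18.1% at E10.5 were at least 2-fold higher in arterial cells, and 8.7% and 5.87% at least 2-fold lower. The Notch target Hey2, a transcription factor, had ratios of 6.99 at E11.5 and 4.47 at E10.5, and the ligand gene Jag1 of 5.29 and 3.56. Of 8 VEGF receptor and ligand genes, 3 were higher and 2 lower at E11.5, and 4 higher and 1 lower at E10.5. Nrp1, a VEGF co-receptor of arteries, had ratios of 1.98 and 2.96, and its venous counterpart Nrp2 of -6.34 and -3.61. Of endothelial transcription factors, 6 of 17 were higher and 3 lower at E11.5, and 3 of 18 higher and 3 lower at E10.5, a share of higher genes near that of all genes at E10.5, with Foxc2 at 2.34 and 1.48 and the venous regulator Nr2f2 at -4.35 and -3.77. Of lymphatic genes, 4 of 4 were lower at E11.5 and 3 of 4 at E10.5, among them the SoxF target Prox1 at 6.61 CPM in arterial against 20.8 CPM in other cells at E11.5, and 1.65 against 18.9 CPM at E10.5. Of 10 cell cycle genes, 7 at E11.5 and 4 at E10.5 were at least 2-fold lower and none higher in arterial cells. Dll4, Jag2, Hey1 and Hey2 of the Notch genes, and Vegfc, are among the arterial markers used to name the class. Nr2f2, Nrp2 and Flt4 are among the venous markers used in naming. The counts of the lists that hold these markers thus describe the classes and test nothing.

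Between the stages, most genes of the lists around SoxF stayed within 2-fold in endothelial-like cells, where 3.81% of all genes were at least 2-fold higher and 2.22% at least 2-fold lower at E11.5. Of 17 SoxF targets, 2 were at least 2-fold higher at E11.5 and none lower, with a median log2 ratio of 0.22 against 0.04 for all genes. These were Robo4, a guidance receptor of endothelium (69.8 CPM at E11.5, 28.5 CPM at E10.5), and the adhesion gene Vcam1 (17.1 and 5.86 CPM). None of 11 Notch genes passed 2-fold. Of 18 endothelial transcription factors, 3 were higher at E11.5, Klf4 (1.35), Ets1 (1.08) and Erg (1.23), and 1 was lower, the early endothelial factor Etv2, at 0.551 CPM at E11.5 and 8.6 CPM at E10.5. Of 8 Wnt and beta-catenin genes, none were higher and 2 lower at E11.5, and their median was -0.46. These were the feedback inhibitor gene Nkd1 (-1.64) and Axin2 (-1.22, from 7 UMIs at E11.5 and 23 at E10.5), which was named after its values were seen. Of 4 lymphatic genes, 1 was higher (median 0.54), the lymphatic and sinusoidal gene Lyve1, at 165 CPM at E11.5 and 34.3 CPM at E10.5.

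In haemogenic-like cells over arterial cells, 16 of 16 measured SoxF targets were at least 2-fold lower over both stages (median log2 ratio -3.86), as were 9 of 11 Notch genes (median -3.42). Gja4 was at 28.9 CPM against 2175 CPM, the VEGF receptor gene Kdr at 38.8 against 832 CPM, and Efnb2 at 14.9 against 367 CPM. Many genes of these lists are markers used to name the arterial class, among them Gja4, Efnb2, Dll4, Cxcr4, Hey1, Hey2 and Jag2. Kdr, Tek, Cdh5, Cldn5, Egfl7 and Robo4 are endothelial markers used in naming. The target and Notch counts thus describe the classes and test nothing. Of all genes in this comparison, 23.7% were at least 2-fold lower and 10.7% at least 2-fold higher. Genes of blood emergence include markers that named the haemogenic-like class, so their levels describe it. Of these genes, 9 of 9 were at least 2-fold higher (median 5.01). Among them, Runx1 was at 168 against 5.22 CPM, Myb at 199 against 3.85 CPM and Spi1 at 252 against 4.95 CPM. Of 10 cell cycle genes, 5 were at least 2-fold higher and none lower.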

How the data were processed

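The authors deposited UMI counts per gene and barcode, 1 table per library. Per the labels' protocols, tissue was dissociated with collagenase and dispase and then trypsin-EDTA, and libraries were made with the 3' v3.1 kit of 10x Genomics. Per the submitters' processing notes, reads were processed with Cell Ranger 5.0.0 and mm10 (GRCm38). Gene positions come from GENCODE release M21. The deposited counts were whole numbers with no barcode under 500 UMIs, and summed to 159619785 at E11.5 and 151474708 at E10.5.

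The filters kept barcodes that had 1000 or more UMIs, 500 or more genes and no more than 10% mitochondrial UMIs, 9756 of 12289 at E11.5 and 8705 of 10996 at E10.5. Scrublet made no automatic call, so the 8% with the highest score were removed per library (780 and 696). Both libraries were clustered together with scanpy 1.11.5 (2000 variable genes per library, 40 components, 15 neighbours, Leiden resolution 1.0), without the SoxF, haemoglobin, mitochondrial, Xist, Tsix and Y-linked genes. Of 48 clusters, 36 were named "-like" where at least 3 markers reached 20 CPM and 3-fold over the other clusters (pseudocount 20 CPM). The vascular and blood progenitor clusters were clustered again, with a 2-fold rule. These thresholds and the second clustering were chosen after seeing the data. Vascular subclusters led by erythroid genes (31 cells at E11.5, 4 at E10.5) or mesenchyme genes (3 and 7 cells) were left out of the endothelial-like class.

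UMIs were summed per class and library and given as CPM (per 1000000), leaving out haemoglobin and mitochondrial genes. Intervals at 95% are exact Poisson for levels, Clopper-Pearson for shares and conditional binomial for ratios. Only the ratio intervals were checked, on class totals simulated with Poisson error. That simulation held no variation between cells, so the check does not cover it. A count of 0 was read as up to 3 counts. Genes with at least 20 UMIs in both classes together entered the 2-fold counts. Named genes were the SoxF members, the 5 genes most like each, up to 4 per gene list with the ratio interval farthest from 0, and the 4 other SOX genes with the highest level in endothelial-like cells. The members and lists were chosen with earlier results of these data known. Alternatives changed the UMI minimum, the mitochondrial limit, doublet removal, the clustering (resolution, each library alone, SoxF genes kept in), the naming of cells (a gate on single markers), the CPM denominator, the summing of cells, the depth (thinning to 5000 UMIs) and the centring of ratios. After the data were seen, the top cell of each member and subcluster 0 were also left out. Python 3.11.15, numpy 2.4.6, scipy 1.17.1 and pandas 2.3.3 were used.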

Additional observations from a re-analysis of the deposited data

How the results depend on the processing

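No ratio that excluded 0 changed sign. Keeping doublets, Leiden resolutions of 0.5 and 2.0, SoxF genes in the clustering, CPM over all genes and leaving out the top cell moved none of the endothelial-like levels, ratios or shares beyond their intervals, but without the top cell the arterial Sox7 level at E11.5 was 171 CPM, below its interval. In the values below, stage ratios set E11.5 over E10.5 and arterial ratios set arterial over other endothelial-like cells, both as log2. The causes were not tested. With at least 2000 UMIs, Sox7 at E10.5 was 68.9 CPM and the share with all 3 members at E10.5 was 45.7%. With at most 5% mitochondrial UMIs, levels at E11.5 and E10.5 were 68.8 and 50.2 CPM (Sox7), 185.0 and 177 CPM (Sox17) and 349 and 237 CPM (Sox18). The Sox7 stage ratio was then 0.45 and the Sox17 stage ratio 0.063, and arterial ratios at E11.5 were 1.08 (Sox7), 2.07 (Sox17) and 0.10 (Sox18), with Sox17 at 1.51 at E10.5 and all 3 members in 34.8% of cells at E10.5. With each library clustered alone, E10.5 levels were 117 CPM (Sox7) and 322 CPM (Sox17), stage ratios -0.56 (Sox7), -0.58 (Sox17) and 0.46 (Sox18), and E10.5 arterial ratios 1.28 (Sox7) and 0.45 (Sox17). With the gate on single markers, levels at E11.5 and E10.5 were 59.0 and 65.7 CPM (Sox7), 160.2 and 194 CPM (Sox17) and 269 and 222 CPM (Sox18), and stage ratios -0.16 (Sox7), -0.27 (Sox17) and 0.28 (Sox18). The gate gave E11.5 arterial ratios of 2.27 (Sox17) and 1.29 (Sox18), and all 3 members in 46.3% of cells at E10.5. In the equal-weight mean over cells, levels at E11.5 and E10.5 were 69.4 and 107 CPM (Sox7) and 246 and 308 CPM (Sox17), and 233 CPM for Sox18 at E10.5. Stage ratios there were -0.62 (Sox7), -0.32 (Sox17) and 0.67 (Sox18), and E10.5 arterial ratios 0.51 (Sox7) and 0.59 (Sox17). Thinned to 5000 UMIs, Sox7 was 85.5 CPM at E10.5, Sox17 was 263 and 279.8 CPM at E11.5 and E10.5, and Sox18 was 343 CPM at E11.5. The thinned Sox7 stage ratio was -0.21, Sox7 arterial ratios 1.64 at E11.5 and 1.30 at E10.5, the Sox17 arterial ratio at E10.5 1.21, and the shares with all 3 members 16.0% at E11.5 and 17.1% at E10.5. With the median of all genes set to 0, the E10.5 arterial ratios were 1.11 (Sox17) and 0.14 (Sox18). Without subcluster 0, the Sox17 arterial ratio at E10.5 was 1.49 and the shares with all 3 members were 60.5% at E11.5 and 55.8% at E10.5. No paired analysis was possible because each stage has 1 library and no result comes from a test. In the haemogenic-like class, each member rests on 27 UMIs or fewer per stage, from 20 cells at E11.5 and 12 at E10.5.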
